A study of Rattus norvegicus with 4 samples.

Results

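The Hivep genes, also called Schnurri genes, encode very large transcription factors with separated sets of C2H2 zinc fingers. Members were the probe sets annotated to exactly 1 of Hivep1, Hivep2 and Hivep3 after matching by gene identifier, which gave 3 genes with 1 probe set each among the 17245 named genes measured. The family was chosen by the measured difference between the shRNA groups, namely the lower Hivep1 intensity, so that difference is given for each member as a description, with its error and without a p-value. Whole-transcript microarrays were run on total RNA from cortical neurons of Sprague Dawley rat embryos (E18, embryonic day 18). The neurons were kept in culture and infected with a pLL3.7 lentivirus that expresses a short hairpin RNA (shRNA). In 2 arrays the virus carried PHF6shRNA-2, directed against the X-linked nuclear protein PHF6 and described in the labels as PHF6 knockdown, and in 2 arrays it carried a control shRNA, described as wild type. RNA of both groups was taken 5 days after infection, and both groups carried virus. A single PHF6 shRNA sequence was used, so loss of PHF6 and other effects of that hairpin cannot be told apart.

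HIVEP proteins bind kappaB-like sequences, the sites also used by NF-kappaB, through pairs of zinc fingers, and can compete with NF-kappaB there. In Drosophila the schnurri protein works with SMAD proteins below the BMP-type ligand Dpp, and in mouse Hivep2 also cooperates with SMADs. Variants of human HIVEP2 cause an intellectual disability syndrome, and mice without Hivep2 show altered maturation of the dentate gyrus, while mouse Hivep3 is best known from bone formation and T cells.

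The promoters of Hivep1 and Hivep2 are shown, and the set of promoters used held no entry for Hivep3. Each sequence holds the 250 bases before the transcription start in RefSeq on GRCr8, and capitals mark the GC box GGGCGG or its complement. The Hivep1 sequence lies at chr17:22917197-22917446 on the minus strand, and the Hivep2 sequence at chr1:10179152-10179401 on the plus strand.
Hivep1: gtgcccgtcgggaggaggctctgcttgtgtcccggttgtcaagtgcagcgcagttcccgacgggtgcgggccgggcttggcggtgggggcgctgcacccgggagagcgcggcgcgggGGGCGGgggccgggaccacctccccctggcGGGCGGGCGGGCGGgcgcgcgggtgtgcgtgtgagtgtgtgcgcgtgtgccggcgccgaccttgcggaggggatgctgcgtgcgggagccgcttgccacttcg
Hivep2: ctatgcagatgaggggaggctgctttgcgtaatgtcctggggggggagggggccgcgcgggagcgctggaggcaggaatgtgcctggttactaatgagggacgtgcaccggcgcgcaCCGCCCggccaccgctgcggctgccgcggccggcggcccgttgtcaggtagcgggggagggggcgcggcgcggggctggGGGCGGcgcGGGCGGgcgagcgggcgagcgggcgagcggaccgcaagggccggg
Both sequences were 77.2% G or C and held 35 CpG pairs, against medians of 51.2% and 5 over all 33469 promoters of the same length. The GC box, the site of Sp-family factors, matched 4 times in Hivep1, where the last 3 overlap in a single run, and 3 times in Hivep2, counting both strands. A GC box was present in 30.5% of all promoters. Neither sequence held GACTTTCC, the end of a classical kappaB site (present in 0.911% of promoters), the E-box CACGTG (5.59%), the cAMP response element TGACGTCA (1.59%), TATAAA (12.9%) or CCAAT (34.0%), each searched on both strands. A match is a run of letters in this window and not a measured site.

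Over the 29214 probe sets of each array the median intensity lay between 40.9 and 41.7. A background level was taken from 206 olfactory or vomeronasal receptor genes, at their 95th percentile, and was 39.9 and 32.7 in the PHF6 shRNA arrays and 41.2 and 32.5 in the control arrays, numbered 1 and 2 in that order. Phf6, the targeted gene, read 34.4 and 31.3 in the PHF6 shRNA arrays and 32.8 and 34.3 in the control arrays. It exceeded background on only 1 array, so its probe set does not check the labels on which all directions rest. The arrays are labelled biological duplicates without a statement that they came from separate cultures, so errors measure the spread between these arrays, and their number limits the precision. With all 17245 genes, limma called 0 (0%) at an adjusted p under 0.05 and gave 1862 (10.8%) an unadjusted p under 0.05.

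Hivep1, which was first described as a protein binding the kappaB sites of viral and immune enhancers, was lower in both PHF6 shRNA arrays. Its probe set read intensities of 132 and 151 in the PHF6 shRNA arrays, against 286 and 285 in the control arrays. The control arrays nearly coincided, and the PHF6 shRNA arrays lay well below them without overlap. In log2 units the means were 7.14 ± 0.14 in the PHF6 shRNA arrays and 8.16 ± 0.0032 in the control arrays (SD, n = 2 each). The difference was -1.01 ± 0.10 log2 units (limma SE), which is a 2.02-fold lower intensity with PHF6 shRNA. All 4 arrays read above background, by 1.73 and 2.21 log2 units with PHF6 shRNA and by 2.80 and 3.13 in the control arrays. Within the arrays numbered 1 the difference was -1.11, and within those numbered 2 it was -0.92. Of all genes 0.058%, or 10 genes, were at least 2-fold lower without overlap between the groups, and Hivep1 was the tenth from the lowest difference. Because this contrast chose the gene, nothing more is read from that rank.

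**Figure D1:**
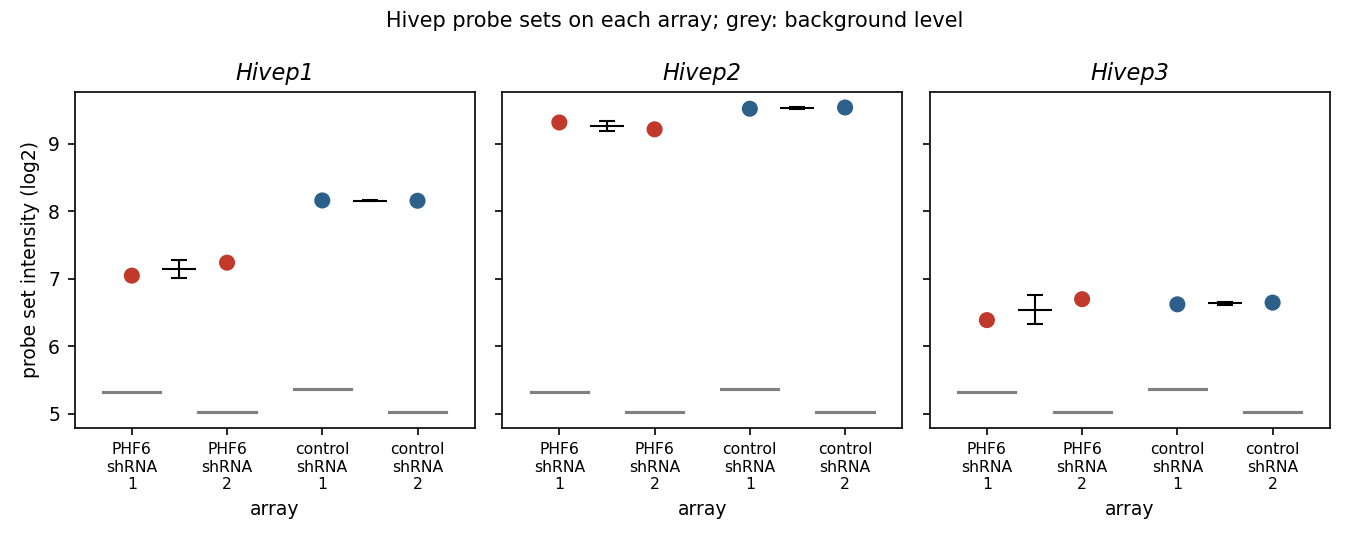
Probe set intensity (log2) of Hivep1, Hivep2 and Hivep3 on each array, PHF6 shRNA in red and control shRNA in blue, with black marks for the mean ± SD of 2 arrays and grey bars for the background level of each array. Hivep1 lies near 7.14 with PHF6 shRNA and 8.16 with control shRNA, Hivep2 differs by -0.26 and the Hivep3 groups overlap; heights of different probe sets are not comparable.

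Hivep2, also known as MIBP1 for binding an intron of Myc, showed a smaller difference of the same sign. It read 636 and 593 in the PHF6 shRNA arrays, against 732 and 742 in the control arrays. Both PHF6 shRNA arrays were lower than both control arrays, with a gap of 0.20 log2 units between the groups. The means were 9.26 ± 0.07 in the PHF6 shRNA arrays and 9.53 ± 0.01 in the control arrays (SD, n = 2 each), a difference of -0.26 ± 0.09 log2 units, or 1.20-fold lower. The difference was -0.20 in the arrays numbered 1 and -0.32 in those numbered 2. Of all genes, 7.69% had a lower difference than Hivep2.

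Hivep3, also called KRC or Schnurri-3, read 83.7 and 104 in the PHF6 shRNA arrays, against 98.4 and 100.1 in the control arrays. The PHF6 shRNA arrays held both the lowest and the highest of the 4 values, so the groups overlapped. The means were 6.54 ± 0.22 in the PHF6 shRNA arrays and 6.63 ± 0.02 in the control arrays (SD, n = 2 each), a difference of -0.09 ± 0.12 log2 units. It was -0.23 in the arrays numbered 1 and 0.05 in those numbered 2, so its sign depended on the pair of arrays. The values lay 1.07 and 1.67 log2 units above background with PHF6 shRNA, and 1.26 and 1.62 above it in the control arrays.

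The 3 members therefore differed by -1.01, -0.26 and -0.09 log2 units, and 2 of the 3 were lower without overlap, as were 21.7% of all genes. In all 3 the control arrays lay closer together, within 0.03 log2 units, than the PHF6 shRNA arrays, whose SDs were 0.14, 0.07 and 0.22. For Hivep1 and Hivep3 the array PHF6 shRNA 1 was the lower of its group, and for Hivep2 it was PHF6 shRNA 2. In the order of arrays, both control arrays stood above both PHF6 shRNA arrays for Hivep1 and Hivep2.

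**Figure D2:**
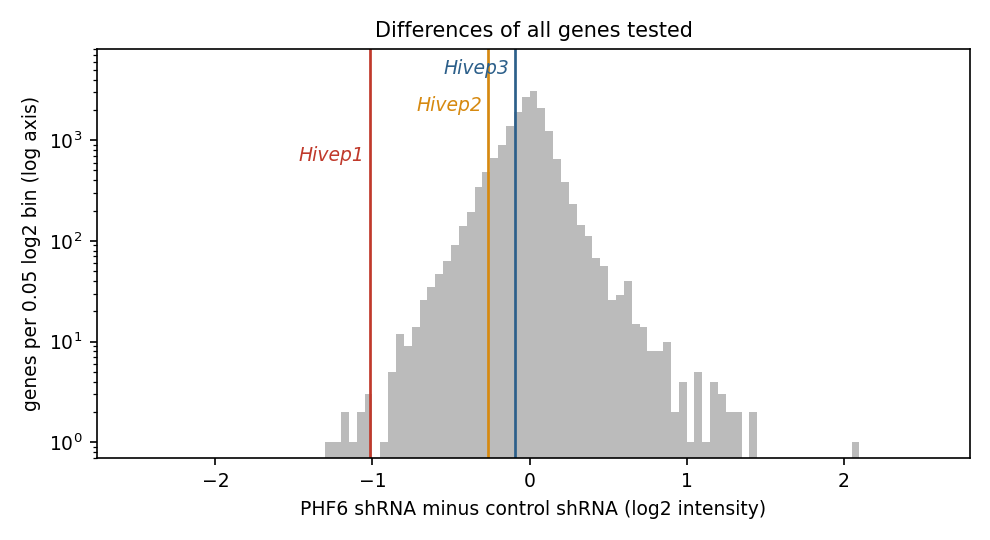
Number of genes (log axis) by difference between PHF6 shRNA and control shRNA in log2 intensity, in bins of 0.05, for all 17245 genes. Vertical lines mark Hivep1 at -1.01 in the lower tail, Hivep2 at -0.26 and Hivep3 at -0.09 within the bulk.

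The difference between arrays numbered 2 and arrays numbered 1 was not used to choose the members and was tested with shRNA group as a covariate. Hivep1 averaged 7.70 log2 units in the arrays numbered 2 and 7.60 in those numbered 1, a difference of 0.09 ± 0.08 (SE, limma adjusted p = 0.59). Hivep2 averaged 9.37 in the arrays numbered 2 and 9.41 in those numbered 1, a difference of -0.04 ± 0.08 (limma adjusted p = 0.82). Hivep3 averaged 6.67 in the arrays numbered 2 and 6.50 in those numbered 1, a difference of 0.17 ± 0.09 (limma adjusted p = 0.36). None of the 3 members passed, while 684 of 17245 genes (3.97%) did.

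Markers of cell types were summed as intensities to show what moved beside these genes. The 8 pan-neuronal markers, all above background on 4 arrays, summed to 9310 and 9395 in the PHF6 shRNA arrays, against 10433 and 10230 in the control arrays. Of them 4 were lower without overlap, against 21.7% of all genes, and 7 of 8 had a difference below 0, against 52.3% of all genes. The differences ran from -0.65 to 0.05, and under cyclic loess 6 of 8 were below 0. Astrocyte and radial glia markers followed the array numbers, with 1016 and 2135 in the PHF6 shRNA arrays and 765 and 1867 in the control arrays over 7 genes. All 7 of their differences were above 0 (6 under cyclic loess), where 47.7% of all genes were, with a median of 0.14. Slc1a2 had the highest difference, at 0.98, and was the only 1 of 7 higher without overlap, against 16% of all genes. It read 318 and 357 in the PHF6 shRNA arrays and 140 and 210 in the control arrays, much of the difference in the sums. Gfap and Gja1, above background on only 2 arrays each, were lower with PHF6 shRNA in the arrays numbered 2 (-0.19 and -0.03). Aqp4 was lower in those numbered 1 (-0.03). Slc1a2, Slc1a3, S100b and Fabp7 were higher with PHF6 shRNA under both array numbers. The 6 markers of dividing cells summed to 232 and 574 in the PHF6 shRNA arrays and 323 and 537 in the control arrays. All 6 of their differences were below 0, with a median of -0.13, and 0 were lower without overlap. In the arrays numbered 1 all 6 were lower with PHF6 shRNA. In those numbered 2, Mki67 (0.20), Top2a (0.02), Ccnb1 (0.02), Cdk1 (0.14) and Aurkb (0.09) were higher and Bub1 (-0.13) was lower. Of the 6 markers, 2 were above background on all 4 arrays. GABAergic markers summed to 4644 and 3777 in the PHF6 shRNA arrays and 4321 and 3306 in the control arrays over 7 genes. Of them Dlx1 was above background on no array. Their differences were above 0 in 6 of 7 (7 under cyclic loess), with a median of 0.16. Only Dlx1 and Dlx2 were higher without overlap. Oligodendrocyte lineage markers summed to 295 and 389 with PHF6 shRNA and 314 and 397 with control shRNA over 7 genes, Pdgfra being above background on no array. Of 8 microglial markers 5 (Aif1, Csf1r, Itgam, C1qa and P2ry12) were above background on no array, and the sums were 251 and 233 with PHF6 shRNA and 258 and 226 with control shRNA. Endothelial and mural markers gave 118 and 113 with PHF6 shRNA and 109 and 106 with control shRNA over 4 genes, with Cldn5 and Tek above background on no array. The 5 fibroblast markers gave 261 and 251 with PHF6 shRNA and 253 and 239 with control shRNA, with Lum above background on no array. Differences were above 0 for 3 of 7 oligodendrocyte lineage, 2 of 8 microglial and all 4 endothelial and mural markers. They were also above 0 for all 5 fibroblast markers, or 3 of 5 when arrays were centred on the median. The part of cell composition in the Hivep1 and Hivep2 differences was not tested, and in bulk RNA fewer cells of a type and less RNA per cell cannot be told apart.

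The genes whose profiles were most like those of the members were found by the root mean square distance between log2 values over the 4 arrays, each centred on its own mean, among 10886 genes above background on at least 2 arrays. The member itself was left out, as were symbols of receptor genes (Olr, Vom), microRNAs (Mir) and provisional genes (LOC, AABR or a numbered RGD). They were picked for this likeness, so their differences are a description too. Nearest to Hivep1 was Nsg1, a neuronal endosomal protein, at a distance of 0.07 log2 units, with intensities of 398 and 507 in the PHF6 shRNA arrays and 936 and 961 in the control arrays. Ywhag, the gamma form of 14-3-3, followed at 0.07, with 623 and 737 in the PHF6 shRNA arrays and 1263 and 1231 in the control arrays. Scarb2, a lysosomal membrane protein, stood at 0.08, with 153 and 184 in the PHF6 shRNA arrays and 299 and 313 in the control arrays. Elavl3, the neuronal RNA-binding protein HuC, also stood at 0.08, and Pphln1, periphilin, at 0.10. Elavl3 differed by -0.93 ± 0.13 and Pphln1 by -0.83 ± 0.09 log2 units. All 5 had groups that did not overlap, with PHF6 shRNA 1 the lowest array, as for Hivep1.

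Distances were smaller for Hivep2 and Hivep3, but they are not scaled to the size of a gene's own difference, so they are not comparable between members. Nearest to Hivep2 were Rad23b, a DNA repair and proteasome shuttle factor, Mib2, a ubiquitin ligase, and Fam98a, at distances of 0.0092, 0.0095 and 0.012 log2 units. Their differences ran from -0.27 (Rad23b and Mib2) to -0.26 (Fam98a). Nearest to Hivep3 were Arhgap31, Trnt1, which adds the CCA end to transfer RNAs, and Itgb1bp1, an integrin-binding protein, at 0.0094, 0.010 and 0.013. Arhgap31 and Trnt1 were above background on only 2 arrays, and all 3 had overlapping groups.

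**Figure D3:**
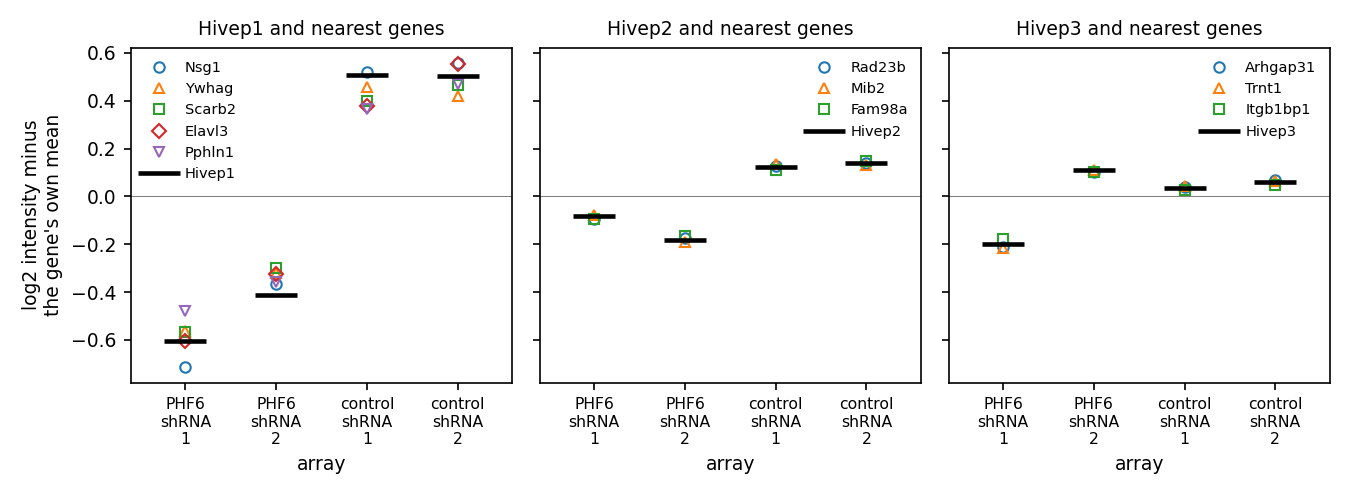
Log2 intensity minus each gene's own mean on each array, for Hivep1, Hivep2 and Hivep3 (black bars) and the genes nearest to each in profile (open symbols). The 5 genes near Hivep1 lie below their mean in both PHF6 shRNA arrays and above it in both control arrays, while the Hivep3 panel shows PHF6 shRNA 1 alone below the mean.

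Genes around the Hivep factors were taken from 5 lists that hold 84 different genes, 76 of them measured. Limma called 0 genes of these lists at an adjusted p under 0.05, as it called 0% of all genes. Over the lists named below, the counts at an unadjusted p under 0.05 stand against 10.8% of all genes, and the medians against -0.0066 log2 units over all genes.

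NF-kappaB subunits, their inhibitors and kinases, which share DNA sites with HIVEP proteins, had a median difference of 0.07 log2 units (-0.03 when control duplicate 1 was left out, -0.0070 when PHF6 shRNA duplicate 2 was) over 11 of 16 genes measured, 8 higher and 3 lower, and 0 had an unadjusted p under 0.05. Rela, the p65 activating subunit, read 340 and 341 in the PHF6 shRNA arrays and 309 and 299.8 in the control arrays, a difference of 0.16 ± 0.08 (limma adjusted p = 0.60). Nfkbib, an inhibitor that holds NF-kappaB in the cytoplasm, differed by -0.18 ± 0.10 (limma adjusted p = 0.62). These were the only list members whose groups did not overlap, 1 higher and 1 lower of 11, while 16% of all genes were higher and 21.7% lower without overlap. Nfkbiz, a nuclear inhibitor-like protein, and Ikbkg, the regulatory subunit of the kinase complex, differed by 0.14 ± 0.12 and 0.12 ± 0.11. Nfkb1 and the classical inhibitor Nfkbia differed by 0.03 ± 0.11 and 0.07 ± 0.25.

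BMP and TGF-beta genes, the pathway in which Schnurri proteins meet SMADs, had a median of -0.0076 over 23 of 24 genes measured, 11 higher and 12 lower, and 1 had an unadjusted p under 0.05. The median was 0.02 with 15 higher under cyclic loess and 0.02 with 13 higher under a further quantile normalization. When 1 array was left out it ran from -0.09 (PHF6 shRNA duplicate 2) to 0.08 (control duplicate 2). The gene with an unadjusted p under 0.05 was Acvr1, a type I BMP receptor kinase, with 290 and 311 in the PHF6 shRNA arrays and 205 and 247 in the control arrays, a difference of 0.42 ± 0.12 (limma adjusted p = 0.32). Among ligands Tgfb3 differed by 0.19 ± 0.09, and Bmp2, Bmp4 and Tgfb1 were above background on no array. Among SMADs Smad9, a BMP-regulated SMAD, differed by -0.24 ± 0.12, while Smad4, the common partner, differed by 0.07 ± 0.10. Smad7, an inhibitory SMAD, differed by 0.19 ± 0.10 with no array above background. Id1, Id2 and Id3, target genes of BMP signalling, differed by -0.04 ± 0.14, 0.04 ± 0.08 and -0.24 ± 0.18.

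Reported targets and partners of HIVEP proteins had a median of 0.05 (from 0.0066 without control duplicate 2 to 0.08 without control duplicate 1) over 14 of 15 genes measured, 9 higher and 5 lower, and 2 had an unadjusted p under 0.05. Sstr2, a somatostatin receptor whose promoter is bound by Hivep2 in mouse, read 304 and 307 in the PHF6 shRNA arrays and 194 and 233 in the control arrays. Both PHF6 shRNA arrays were higher than both control arrays, and the difference was 0.53 ± 0.11, or 1.44-fold (limma adjusted p = 0.24). Jun, an AP-1 subunit that binds Hivep3, read 237 and 213 in the PHF6 shRNA arrays and 151 and 198 in the control arrays, a difference of 0.38 ± 0.15 (limma adjusted p = 0.45). Its difference was 0.65 in the arrays numbered 1 and 0.11 in those numbered 2. Wwp1, a ubiquitin ligase that acts with mouse Hivep3 on Runx2, differed by 0.06 ± 0.12, and Runx2 itself by 0.07 ± 0.17. Myc, bound by Hivep2 in an intron, differed by -0.08 ± 0.17. Tnf differed by 0.17 ± 0.08 with no array above background, where Il2, Pparg, Serpina1 and Gata3 also stood, and Cebpa, an adipocyte factor, differed by 0.19 ± 0.16.

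All 6 markers known to be altered in the dentate gyrus of Hivep2-null mice were measured. Of them 5 were higher (4 under cyclic loess), where 47.7% of all genes were higher. The list median was 0.04, and 1 gene had an unadjusted p under 0.05. The list holds altered markers whatever the direction of their change in those mice. The count of higher genes and the median therefore do not measure likeness to those mice. When 1 array was left out the median ran from 0.02 (control duplicate 1) to 0.13 (PHF6 shRNA duplicate 1). Calb1, the calcium buffer calbindin, which is reduced in dentate granule cells of those mice, read 202 and 156 in the PHF6 shRNA arrays and 45.9 and 94.8 in the control arrays. The difference was 1.43 ± 0.35 log2 units (limma adjusted p = 0.28), with 2.14 in the arrays numbered 1 and 0.72 in those numbered 2. The SD between the control arrays was 0.74 log2 units for this gene, against 0.27 between the PHF6 shRNA arrays. Dsp, desmoplakin, differed by -0.12 ± 0.08. Calb2 and Tdo2 were above background on no array. Drd1 and Gfap, above background on only 2 arrays each, had overlapping groups and differed by 0.02 ± 0.09 and 0.01 ± 0.29.

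Other transcription factors with many zinc fingers that neurons express were taken as a further list. Of 24 listed, 23 were measured, with 18 higher and 5 lower, where 47.7% of all genes were higher. The median was 0.08, or -0.03 without control duplicate 1, and 2 genes had an unadjusted p under 0.05. Zfhx4, a homeodomain and zinc-finger protein, read 73.6 and 97.8 in the PHF6 shRNA arrays and 55.0 and 54.8 in the control arrays, a difference of 0.63 ± 0.15 (limma adjusted p = 0.27). Zfp536, a neuronal zinc-finger repressor, differed by 0.33 ± 0.08 (limma adjusted p = 0.29), with 59.1 and 62.3 in the PHF6 shRNA arrays and 47.3 and 49.3 in the control arrays. Zeb2, a SMAD-binding repressor, differed by 0.39 ± 0.17 and Rreb1 by 0.30 ± 0.14. Fezf2, which specifies subcortical projection neurons, differed by 0.21 ± 0.10. The lowest difference in the list was that of Zfpm2, a cofactor of GATA proteins, at -0.31 ± 0.18.

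**Figure D4:**
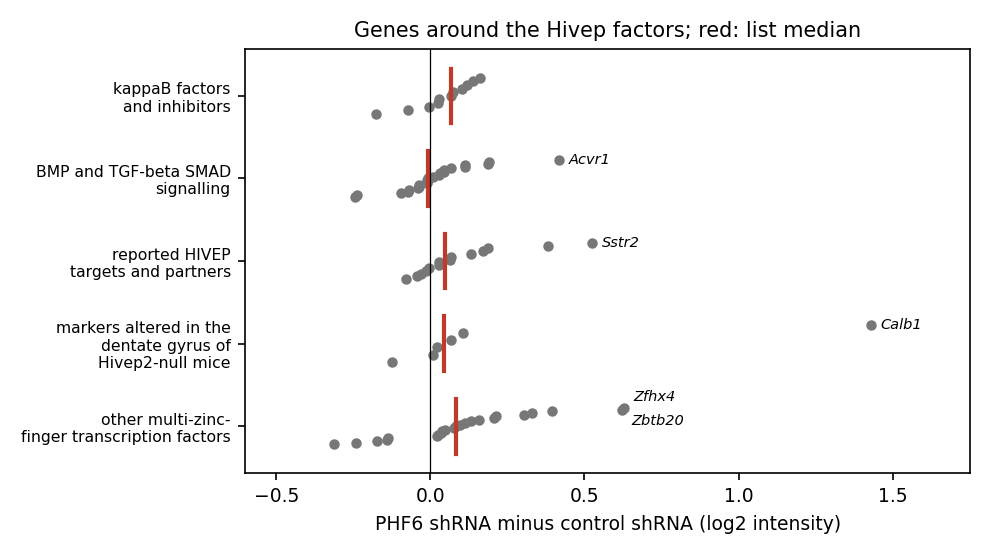
Difference between PHF6 shRNA and control shRNA in log2 intensity for each measured gene of 5 lists, with the list median in red and genes more than 0.4 from 0 named. Most genes lie near 0, Calb1 stands at 1.43 and Sstr2 at 0.53, and the zinc-finger list has 18 of 23 genes above 0.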

How the data were processed

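Values are probe set intensities that the authors made with RMA, per the submitters' processing notes, and deposited on a linear scale from 8.57 to 6121. RMA corrects background, normalizes by quantiles and compresses differences of dim probe sets, so their folds are understated; the sources used here give neither its version nor its settings. Log2 was taken before every fit. Of 29214 rows, 18644 carried 1 symbol, 962 several and 9608 none in the platform annotation; 18460 were matched by gene identifier to RefSeq (GRCr8) and 184 kept as annotated. For 879 genes with several probe sets the brightest was used. Groups followed the sample titles. Fits used limma 3.58.1 in R 4.3.3 (lmFit, eBayes, 2-sided, no filter, and no covariate except shRNA group in the comparison of array numbers) with Benjamini-Hochberg adjustment over 17245 genes. The fit between the shRNA groups was also run on simulated arrays with independent noise. That check does not cover a correlation between same-numbered arrays. At most 11 of the values on any 2 arrays were identical. Alternatives were 3 scalings, each array left out, the duplicate number as a replicate block, the mean of probe sets, all rows, a filter on dim genes, a variance trend, a robust prior and, for the array numbers, no shRNA covariate.

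Members and lists were chosen with earlier results of these data known. Named genes were the members, Phf6, the 4 genes of smallest p in each list with up to 2 more by role, and the 5 (Hivep1) or 3 (Hivep2, Hivep3) nearest profiles; other genes were named after their values were seen. List genes without a row were not analysed here.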

Additional observations from a re-analysis of the deposited data

How the results depend on the processing

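Over 13 alternatives the Hivep1 difference ran from -1.11 to -0.92 log2 units, and over the 4 fits that leave out 1 array it had the same range; under a further quantile normalization (-0.96), under cyclic loess (-0.94) and without PHF6 shRNA duplicate 1 (-0.92) it was less than 2-fold. Hivep2 ran from -0.31 to -0.20 over 13 alternatives, -0.20 being the value under cyclic loess, and from -0.31 to -0.21 without 1 array. Hivep3 ran from -0.25 to 0.063 when 1 array was left out, and was 0.063 without PHF6 shRNA duplicate 1. The difference between array numbers, a value without a test when 1 array is left out, ran from -0.0045 to 0.19 for Hivep1, from -0.10 to 0.018 for Hivep2 and from 0.025 to 0.31 for Hivep3; it did not pass under any of the other alternatives. Without shRNA group as a covariate limma called 0 genes by array number (1887 at an unadjusted p under 0.05), against 684 with it. With the duplicate number as a replicate block the member differences were the same, with SEs of 0.08 (Hivep1), 0.08 (Hivep2) and 0.09 (Hivep3). That fit called 909 of all genes, and of the lists 1 BMP and TGF-beta gene (Acvr1, limma adjusted p = 0.032), 1 reported target (Sstr2, 0.021), 1 dentate marker (Calb1, 0.026) and 2 zinc-finger genes (Zfhx4, 0.020, and Zbtb20, 0.0094). The Zbtb20 groups overlapped, with 134 and 297 in the PHF6 shRNA arrays and 92.7 and 181 in the control arrays. Without the block its limma adjusted p was 0.79. The sample descriptions end in exp-1 and exp-2 in both groups, but the labels do not say whether equal numbers mark paired arrays. Deviations of same-numbered arrays from their group means correlated at 0.57 over genes. Without PHF6 shRNA duplicate 2 limma called 90 genes and without PHF6 shRNA duplicate 1 it called 2, none of them in the lists. The cause of these changes was not tested, and 2 arrays a group limit the precision of every value.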

Other observations

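The measured protein-coding genes next to each member on its chromosome, 2 on each side in RefSeq order, were looked up after the members' values were seen. Beside Hivep1 on chromosome 17, Phactr1, a regulator of protein phosphatase and actin, read 237 and 262 in the PHF6 shRNA arrays and 276 and 292 in the control arrays, a difference of -0.19 ± 0.09 log2 units. Tmem170b, on the other side of Hivep1, read 165 and 165 in the PHF6 shRNA arrays and 177 and 185 in the control arrays, a difference of -0.14 ± 0.08. Edn1, endothelin 1, and Adtrp were above background on no array.

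Beside Hivep2 on chromosome 1, Vta1, a factor of the multivesicular body pathway, read 186 and 225 in the PHF6 shRNA arrays and 280 and 289 in the control arrays, a difference of -0.47 ± 0.12. Adat2, Aig1 and Adgrg6 differed by 0.01 ± 0.09, -0.0074 ± 0.09 and 0.0062 ± 0.09, with overlapping groups. Beside Hivep3 on chromosome 5, Guca2b, a guanylate cyclase activator, differed by -0.06 ± 0.09, and Guca2a, Edn2 and Foxo6 were above background on 1 array at most.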
